A study of Homo sapiens with 20 samples.

Results

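The 10 genes described here belong to the cellular stress programme run by the transcription factor ATF4 and to the serine synthesis pathway that it feeds: ATF4, DDIT3 and XBP1 (transcription factors), DDIT4, TRIB3, SESN2 and CHAC1 (feedback and growth inhibitors), and ASNS, PHGDH and PSAT1 (amino acid synthesis enzymes). They were taken from a list of gene names, which uses no measured threshold but was drawn up with earlier results of these data known, among the 20046 protein-coding genes of GENCODE release 44 on GRCh38. For each gene every summit, the highest point of a called ChIP-seq peak, was collected from the 12 summit lists if it lay within 1 kb of any annotated transcription start site (TSS) of the gene, here called a promoter summit, or further inside the gene. The lists come from ChIP-seq in PC-3, an established epithelial cell line of human prostate cancer, with an antibody against RNA polymerase II (called POL2) and another against c-Myc (called MYC), a growth-promoting transcription factor. Wild-type (WT) PC-3 cells were set against PC-3 cells with the kinase gene SLK knocked out (SLK-KO), a line that the labels call PSD10. Each antibody and genotype had 3 libraries, which the series names biological replicates. No drug or amino acid deprivation is named for either genotype, and both were grown to near confluence in standard culture. Whether PSD10 is a single clone is not given in the sources used here, so the knockout and anything else particular to that line cannot be told apart.

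ATF4 is the central effector of the integrated stress response. Kinases that sense amino acid shortage, unfolded protein, haem lack or viral RNA phosphorylate the translation factor eIF2alpha, which lowers general protein synthesis but lets the ATF4 message be translated through its upstream open reading frames. ATF4 then binds C/EBP-ATF response elements as a dimer with other bZIP proteins and drives genes of amino acid supply, redox balance and cell death, and MYC-driven tumour cells are known to draw on this programme. XBP1 belongs to a neighbouring branch, the IRE1 arm of the unfolded protein response, in which its message is spliced to give an active factor.

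The POL2 lists ran to 17126, 5047 and 9925 summits for WT replicates 1, 2 and 3, and to 19017, 15436 and 16298 for SLK-KO. The MYC lists were shorter, with 365, 201 and 267 for WT and 1218, 1420 and 988 for SLK-KO. The lists give no read counts, so the depth behind them is unknown, and the number and the presence of summits move with list length: WT replicate 2, the shortest POL2 list, is the WT library in which most absences below occur. The targeted gene SLK had a POL2 promoter summit in 2 WT and 3 SLK-KO libraries, which says nothing about loss of its product. Of the markers looked at, the epithelial genes KRT8, KRT18 and CD44 had a POL2 promoter summit in all 6 libraries and EPCAM in 4. KLK3, a marker of androgen-responsive prostate cells, and PTPRC and DCN, markers of leukocytes and fibroblasts, had none, while TMPRSS2 had a summit in all 6 libraries, COL1A1 in 4 and PECAM1 in 1.

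The sequences that these factors are known to read were located in the GRCh38 genome, because they fix where a summit lies relative to the known elements. Both strands were searched, and all sequences are written 5′ to 3′ on the strand of the gene. ATF4 was the 1 member of the 10 whose RefSeq promoter (GRCh38.p14, 250 bases before to 50 after the start) held the MYC E-box CACGTG, at -85 to -80 from the canonical TSS. CACGTG occurred in 7.26% of all 35116 RefSeq promoters. The ATF4 promoter also held TATAAA at -30 to -25, found in 11.5% of promoters. Both motifs lie upstream of the canonical transcript and inside the annotated 5′ UTR of another ATF4 transcript, so 30 bases around each are shown, with the motif in capitals.
ATF4 E-box, chr22:39520465-39520494, + strand: ggaggagacggtCACGTGgtcgcggcggaa
ATF4 TATAAA, chr22:39520520-39520549, + strand: agagacgaagtcTATAAAgggccggcgggc

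XBP1 was the 1 member whose promoter held the ER stress element, CCAAT and CCACG separated by 9 bases of any kind, the element read by ATF6 and XBP1. Its letters stood at -52 to -34 from the canonical TSS. The element occurred in 0.0769% of all RefSeq promoters, and in 0.195% of coding genes within 1 kb of the canonical TSS. The 222 bases of the XBP1 promoter (RefSeq, GRCh38.p14) that lie outside every annotated UTR are shown with the element in capitals. The CCAAT of the element is also counted among the CCAAT boxes, which 7 of the 10 promoters held against 34.6% of all promoters.
XBP1 promoter, chr22:28800598-28800819, - strand: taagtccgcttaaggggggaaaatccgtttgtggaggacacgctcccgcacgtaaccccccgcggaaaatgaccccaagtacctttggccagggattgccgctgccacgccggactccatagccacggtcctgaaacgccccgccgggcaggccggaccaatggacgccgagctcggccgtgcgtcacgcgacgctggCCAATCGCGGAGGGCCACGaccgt

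The C/EBP-ATF element TGATGNAA (N any base) stood within 1 kb of the canonical TSS in 8 of the 10 genes, all but ATF4 and XBP1, against 18.8% of the 20046 coding genes. The form TGATGCAA, which is included in that count, stood there in 7 genes against 3.68%. In the narrower RefSeq promoter TGATGNAA occurred in CHAC1 and ASNS, against 3.62% of all promoters. The genes were listed as known members of the ATF4 programme, so these counts describe the list and are not independent of how it was drawn up. For each of the 8 genes 30 bases around an element are shown with its 8 letters in capitals. TTGCATCA and TTTCATCA are the same element read on the opposite strand.
DDIT3, -306 from the canonical TSS, chr12:57520802-57520831, - strand: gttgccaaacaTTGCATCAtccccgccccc
DDIT4, -946, chr10:72272967-72272996, + strand: gtcctcggtccTGATGCAAccgtctggatc
TRIB3, 132, chr20:380881-380910, + strand: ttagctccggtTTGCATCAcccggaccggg
SESN2, 552, chr1:28260059-28260088, + strand: cgggacccgggTTGCATCAactggcagccg
CHAC1, -209, chr15:40953251-40953280, + strand: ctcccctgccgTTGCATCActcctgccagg
ASNS, -68, chr7:97872458-97872487, - strand: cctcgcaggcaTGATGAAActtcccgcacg
PHGDH, 863, chr1:119712786-119712815, + strand: cgcccctcgtcTGATGCAAgactgctccgt
PSAT1, 267, chr9:78297381-78297410, + strand: ccctaggcgctTTGCATCAgcgtgcacagc

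TRIB3 carried this window 3 times over, at 132, 165 and 198 bp from the canonical TSS. The copies are 33 bp apart, with identical letters, inside the 5′ UTR of the canonical transcript. The RefSeq start used for the TRIB3 promoter, 381295, lies 535 bp downstream of the canonical TSS, so the copies are upstream of that start. The elements of SESN2, PHGDH and PSAT1 shown lie in an intron of the canonical transcript, and those of DDIT3, DDIT4, CHAC1 and ASNS lie upstream of it. DDIT3 had 2 further matches in an intron, SESN2 and ASNS 1 more upstream, and PHGDH 1 more at -954. No antibody against ATF4 or a C/EBP protein was used in the series, so the elements are shown as positions and not as bound sites.

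POL2 promoter summits were found at 9 of the 10 genes in at least 1 library, where the share of all coding genes was 53.8%, and at 5 genes in all 6 libraries, where the share was 18.0%. ATF4, DDIT3, XBP1, CHAC1 and PHGDH were the 5 genes. The count was 4 with the canonical TSS alone, 4 with a score of at least 5 and 4 at equal list length. In these settings 3270, 2658 and 2613 coding genes had a summit in all 6 libraries, against 3615 in the main setting. DDIT4, TRIB3 and ASNS had a summit in every library except WT replicate 2. PSAT1 had a summit in WT replicate 1 and in all 3 SLK-KO libraries, and SESN2 had none in any library. Per library, 9, 5 and 8 genes had a summit in WT and 9, 9 and 9 in SLK-KO. The WT mean was 7.33 ± 2.08 and the SLK-KO mean 9.0 ± 0.0 (SD, n = 3 for both), a difference of 1.67 genes with ranges that met at 9. Over all coding genes the WT share was 33.9% ± 14.1 and the SLK-KO share 47.1% ± 1.92 (SD, n = 3 for both), so the same direction held over all coding genes. All 3 SLK-KO libraries listed 9 of the 10 genes, against 41.9% of coding genes, and all 3 WT libraries listed 5, against 18.2%. With every list cut to its 5047 best-scored summits the difference at the 10 genes was 1.0. No member had a POL2 summit in 3 libraries of a genotype and 0 of the other, a pattern that 1.54% of coding genes showed in favour of SLK-KO and 0.00998% in favour of WT.

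**Figure D1:**
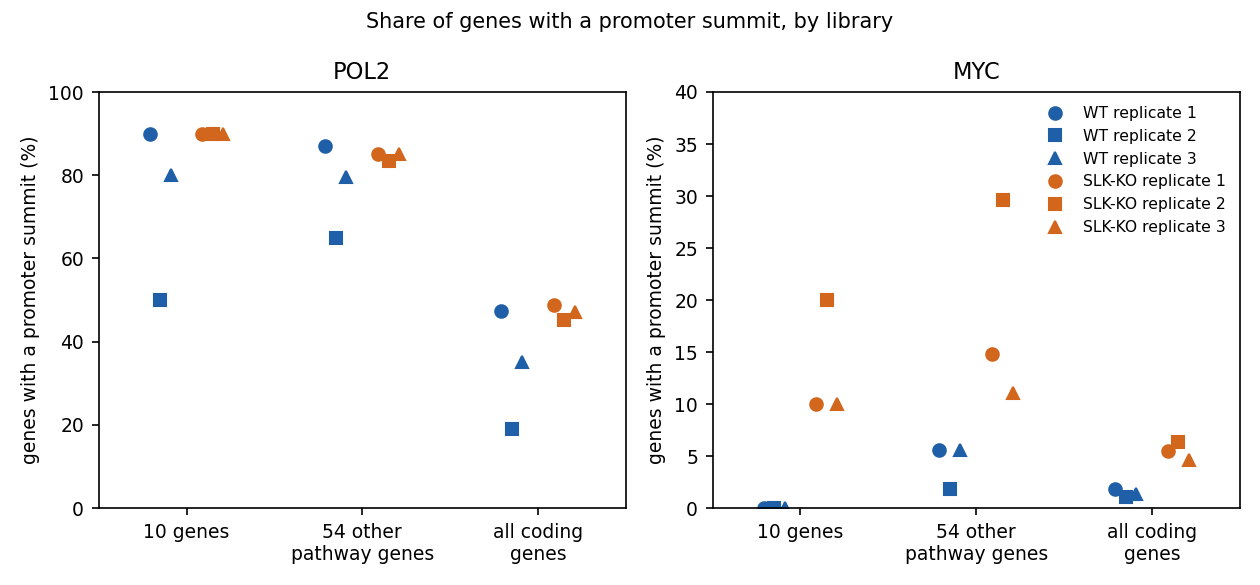
Percent of genes with a promoter summit (vertical axes) in each POL2 library (left) and MYC library (right) for the 10 genes, 54 other genes of the same pathways and all 20046 coding genes; blue is WT, orange is SLK-KO, and marker shape gives the replicate. The POL2 share of the 10 genes was 90.0% in 4 of 6 libraries and 50.0% in WT replicate 2, where the share of all coding genes was 19.1%.

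ATF4 (ENSG00000128272.18, chromosome 22, 39519695 to 39522683, + strand) held a POL2 promoter summit among the best of every list. A rank counts from the best-scored summit of a library. In WT the ATF4 promoter ranked 173 of 17126, 143 of 5047 and 274 of 9925 summits, and in SLK-KO 177 of 19017, 296 of 15436 and 183 of 16298. It thus lay in the top 1.01%, 2.83% and 2.76% of the WT lists and the top 0.931%, 1.92% and 1.12% of the SLK-KO lists, and the ranks of the genotypes overlapped. Ordered by best promoter summit, ATF4 was gene 161 of 9480, 123 of 3835 and 259 of 7065 in WT and gene 154 of 9808, 282 of 9040 and 164 of 9448 in SLK-KO. The authors' score of the summit, read as −log10 of the q-value, was 232.3, 61.1 and 85.8 in WT and 230.7, 128.3 and 206.8 in SLK-KO, and these scores depend on each library's depth. A weaker summit in WT replicate 3 lay 276 bp into the upstream ATF4 transcripts, at rank 7948.

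DDIT3 (ENSG00000175197.13, chromosome 12, 57516588 to 57521737, - strand), which encodes the ATF4-induced death-promoting factor CHOP, came next. Its best summit ranked 368, 275 and 336 in WT and 368, 307 and 274 in SLK-KO. These ranks span less than those of ATF4, they overlapped between genotypes, and they put DDIT3 in the top 5.45% or better of every list. The summit lay at most 29 bp from the start of an overlapping coding gene on the same strand, ENSG00000285133, so POL2 there cannot be assigned to DDIT3 alone. XBP1 (ENSG00000100219.17, chromosome 22, 28794555 to 28800597, - strand) ranked 755, 1457 and 516 in WT and 1136, 711 and 1093 in SLK-KO. Its rank percentage was 4.41 to 6.71 in the 5 longer lists and 28.9 in WT replicate 2, the lowest standing of the gene. A lncRNA on the opposite strand, ENSG00000226471, starts 122 to 195 bp from the XBP1 summits.

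DDIT4 (ENSG00000168209.6, chromosome 10, 72273919 to 72276036, + strand) encodes REDD1, an inhibitor of mTORC1. Its summit ranked 2825 in WT replicate 1 and 7028 in WT replicate 3, and 5139, 9102 and 2365 in SLK-KO. The genotypes overlapped, and the best and the worst rank both came from SLK-KO. TRIB3 (ENSG00000101255.12, chromosome 20, 362835 to 397559, + strand), the pseudokinase that restrains ATF4 and AKT, ranked 4206 and 5434 in WT replicates 1 and 3 and 4007, 3323 and 3993 in SLK-KO. Every SLK-KO rank of TRIB3 was better than every WT rank. CHAC1 (ENSG00000128965.13, chromosome 15, 40952962 to 40956512, + strand), an enzyme that degrades glutathione, ranked 4368, 4998 and 6568 in WT and 3238, 3799 and 3341 in SLK-KO. Its SLK-KO ranks too were all better than its WT ranks, and in WT replicate 2 it was close to the end of the list, with a score of 1.5.

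SESN2 (ENSG00000130766.5, chromosome 1, 28259518 to 28282491, + strand) encodes sestrin 2, a leucine-sensing inhibitor of mTORC1. The nearest POL2 summit of any library lay 110220 bp from a SESN2 TSS. Over all 12 lists there was no summit between positions 28088577 and 28369738 of chromosome 1, a stretch of 281160 bp that also holds ATP5IF1, DNAJC8, MED18 and PTAFR whole. Among coding genes on the sequences with POL2 summits, 3682 of 19983 (18.4%) lay more than 100000 bp from every POL2 summit, and the median distance was 257 bp. The stretch holds several genes, so its emptiness is not particular to SESN2, and its cause was not tested.

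ASNS (ENSG00000070669.17, chromosome 7, 97851677 to 97872542, - strand) encodes asparagine synthetase. It ranked 5051 and 4616 in WT replicates 1 and 3 and 5595, 5771 and 6312 in SLK-KO, lists that differ in length. PHGDH (ENSG00000092621.13, chromosome 1, 119648411 to 119744218, + strand) encodes the first enzyme of serine synthesis. Its best promoter summit ranked 4857, 1678 and 3538 in WT and 4560, 2554 and 2544 in SLK-KO, with overlapping ranges. In WT replicates 1 and 3 and SLK-KO replicate 1 that summit lay at a distal start close to the neighbouring gene ZNF697. PSAT1 (ENSG00000135069.14, chromosome 9, 78297125 to 78330093, + strand), the aminotransferase of the next step, ranked 7673 in WT replicate 1 and 4928, 11153 and 8957 in SLK-KO. Over the libraries that listed each gene, the order of the 9 genes by median rank percentage was ATF4 (1.52%), DDIT3 (2.07%), XBP1 (5.58%), TRIB3 (24.5%), CHAC1 (25.1%), PHGDH (26.2%), DDIT4 (27.0%), ASNS (37.4%) and PSAT1 (49.9%). The range of every gene overlapped that of the next in this order, and those of TRIB3, CHAC1, PHGDH, DDIT4, ASNS and PSAT1 all overlapped one another, so the order of these 6 does not exceed the spread between libraries. The medians leave out libraries with no summit, and placing those last would put DDIT4 after ASNS. Within each of the 6 libraries ATF4 ranked before DDIT3, DDIT3 before XBP1, and XBP1 before every other member listed.

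**Figure D2:**
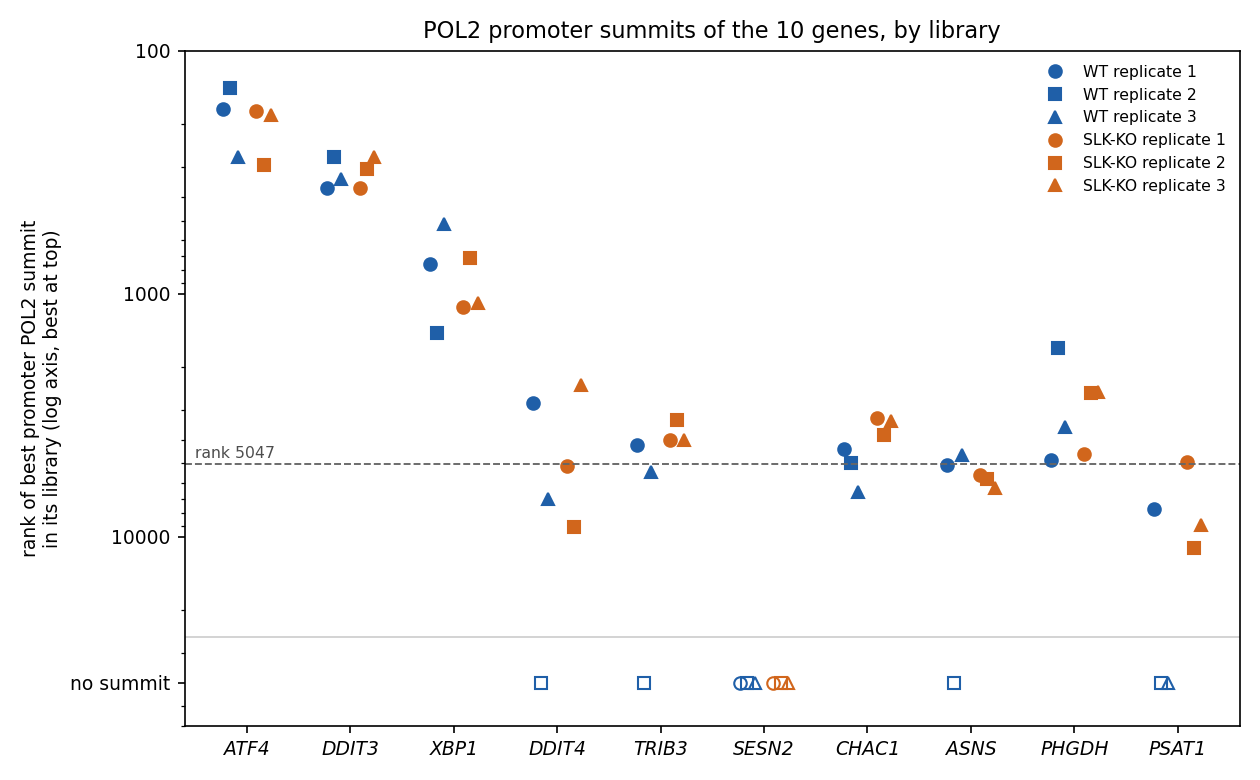
Rank of the best POL2 promoter summit of each gene (vertical log axis, best rank at the top) in each of 6 libraries; blue is WT, orange is SLK-KO, marker shape gives the replicate, open markers at the bottom mark libraries with no summit, and the dashed line is rank 5047, the length of the shortest list. ATF4 sits between ranks 143 and 296 in all 6 libraries, TRIB3 and CHAC1 are higher in every SLK-KO library than in every WT library, and SESN2 has no summit.

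To compare genotypes on one footing, each POL2 list was cut to its 5047 best summits, a gene without a summit was placed after the last rank, and the ranks of 3 WT and 3 SLK-KO libraries were compared per gene. A gene was called when the genotypes did not overlap. TRIB3 and CHAC1 were called in favour of SLK-KO, 2 of the 9 genes that could be tested, where 13.6% of 6797 coding genes were called in that direction. No member was called in favour of WT, where 9.45% were. The mean rank difference, SLK-KO minus WT, was -1345 places for CHAC1 and -993 places for TRIB3 (exact two-sided permutation p = 0.1, Benjamini-Hochberg adjusted p = 0.435 for each). The exact p of 0.1 is the smallest that 20 relabellings allow, so this design could not reach 0.05 for any gene, and 0 of 6797 genes had an unadjusted or adjusted p under 0.05. The CHAC1 call was kept under each alternative that was run, but the size of both differences depends on list length: with lists cut to 80% of the shortest they were -578.7 places for CHAC1 and -263.7 for TRIB3. The TRIB3 call was lost when the promoter window was 500 bp (difference -698.7) and when the canonical TSS alone was used (difference -351.7).

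The other 7 genes were not called. The mean difference of ATF4 was 22.0 places in favour of WT (exact permutation p = 0.5, adjusted 0.864), and the direction was not stable. It was -16.67 places, in favour of SLK-KO, without SLK-KO replicate 2 and -4.833 without WT replicate 2, while without WT replicate 3 the genotypes no longer overlapped, at 60.67 places in favour of WT. In that last setting 907 of 6588 coding genes were called in favour of WT. The exact permutation p was 0.8 for DDIT3, 0.9 for XBP1 and PHGDH, and 1.0 for DDIT4, ASNS and PSAT1. At equal length ASNS was listed in WT replicate 3 and in no other library, and PSAT1 in SLK-KO replicate 1 and in no other.

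Most of the 9 genes carried the best POL2 summit just past the TSS, where polymerase pauses. The ATF4 summit lay 31, 37 and 19 bp downstream of the canonical TSS (39520562) in WT and 45, 34 and 34 bp downstream in SLK-KO, in the first exon, within a span of 26 bp. The difference of 8.67 bp was not larger than the spread (exact permutation p = 0.4, adjusted 0.969). DDIT3 lay 32, 5 and 40 bp downstream in WT and 23, 33 and 32 bp in SLK-KO. XBP1 lay 52, 8 and 43 bp downstream in WT and 35, 35 and 81 bp in SLK-KO, so both stayed inside the transcribed start in every library. Over the 3615 coding genes with a summit in all 6 libraries the median distance was 34 bp and the median span of the 6 positions 118 bp. The best DDIT4 summits lay 31 to 89 bp downstream and the ASNS summits from -28 to 60 bp. A TSS of a lncRNA, ENSG00000289506, lay 251 to 309 bp from the best DDIT4 summits. DDIT4 had 2 weaker summits far upstream, at -756 bp in SLK-KO replicate 1 (rank 17998) and -795 bp in SLK-KO replicate 2 (rank 13435).

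The other 4 genes departed from that position, TRIB3 and PSAT1 in every library that listed them and CHAC1 and PHGDH in some libraries. The best TRIB3 summit lay 867 to 1109 bp downstream of the canonical TSS, in an intron, which is 330 to 572 bp from another annotated TRIB3 TSS at 381297. The 3 element copies shown above lie between the canonical TSS and these summits, and a weaker summit in WT replicate 3 lay 260 bp downstream. The best CHAC1 summit lay upstream of the canonical TSS in WT, at -64, -157 and -365 bp, and at 40, -405 and 43 bp in SLK-KO. It thus stood on either side of the element at -209 in different libraries. PSAT1 summits were all upstream, at -336 bp in WT and -182, -769 and -266 bp in SLK-KO. PHGDH had summits at 2 promoters, its canonical TSS and a distal upstream TSS.

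At the canonical PHGDH start, summits lay at 119711988 and 119711998 in WT replicates 1 and 2 and at 119711970, 119711989 and 119711960 in SLK-KO. Around the distal PHGDH TSS (119648411) summits lay at 119648502 and 119648116 in WT replicates 1 and 3 and at 119648648, 119648592 and 119648388 in SLK-KO. The distal summits lie 122 to 382 bp from a TSS of the neighbouring gene ZNF697, so they cannot be assigned to PHGDH alone. The distal summit was the better ranked in WT replicates 1 and 3 and SLK-KO replicate 1, and the canonical summit was the better ranked in SLK-KO replicates 2 and 3. In WT replicate 2 the canonical summit was the 1 listed, and in WT replicate 3 the distal summit was. The rank of PHGDH in WT replicates 1 and 3 and SLK-KO replicate 1 therefore rests on the shared promoter. The summit at the canonical start ranked 6118 in WT replicate 1 and 5925 in SLK-KO replicate 1. Over positions, 0 of the 5 genes tested was called in either direction, where 6.22% of 3615 coding genes were called with the SLK-KO summit further upstream and 5.17% further downstream. For PHGDH the positions came from both promoters, so its test reflects which promoter scored best and not a shift of a summit. No gene had an unadjusted p under 0.05 by the exact permutation test, whose smallest adjusted p was 0.877.

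**Figure D3:**
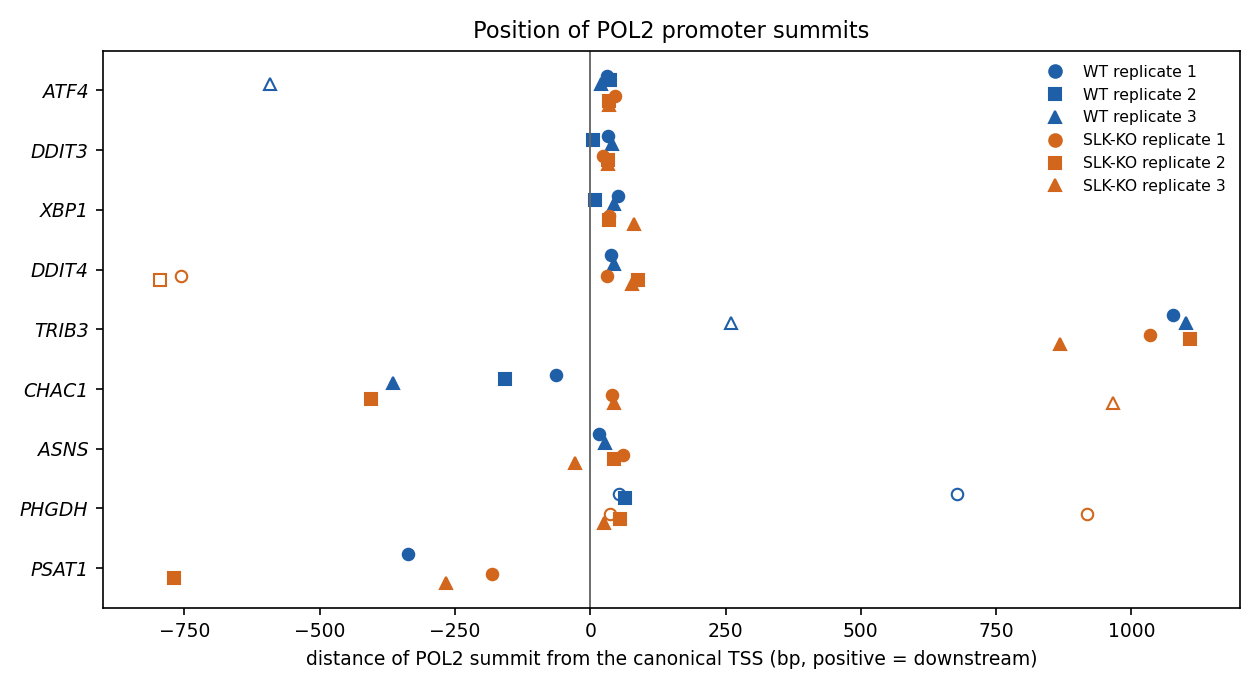
Distance of POL2 promoter summits from the canonical TSS (horizontal axis in bp, positive is downstream) for 9 genes; blue is WT, orange is SLK-KO, marker shape gives the replicate, filled markers are the best-scored promoter summit of a library and open markers its other promoter summits. The filled markers of ATF4, DDIT3 and XBP1 lie 5 to 81 bp downstream of the start, those of TRIB3 867 to 1109 bp downstream, and those of PSAT1 upstream. The distal PHGDH summits and 2 further DDIT3 summits lie outside the axis.

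Inside the genes and more than 1 kb from any TSS of the same gene, POL2 summits were few and low in rank. DDIT3 had 1 in WT and 5 in SLK-KO, spread over all 3 SLK-KO libraries, and TRIB3 had 3, all in SLK-KO replicate 1. Among the DDIT3 summits, the one of SLK-KO replicate 3 at 57519211 lay 48 bp from a TSS of the microRNA gene MIR616. Per library the count was 1, 0 and 0 in WT and 4, 1 and 3 in SLK-KO, with means of 0.333 ± 0.577 and 2.67 ± 1.53 (SD, n = 3 for both). The ranges met at 1. All 9 summits ranked between 11041 and 17931, past the end of the 2 shorter WT lists, and at equal list length none was left. Up to 3 kb past the annotated end there were 11 POL2 summits in 4 genes. ATF4 had the best of them, 442 bp past its end at rank 751 in WT replicate 2, a further one 1770 bp past the end at rank 9299 in WT replicate 3, and others 2440 and 2607 bp past the end in SLK-KO replicates 1 and 3. The DDIT3 summits in that region lay near a TSS of MARS1, the neighbouring methionyl-tRNA synthetase gene. The distance was 71 bp in WT replicate 1, 472 and 1362 bp in SLK-KO replicate 1 and 936 bp in SLK-KO replicate 3. Those within 1 kb of that TSS cannot be assigned to DDIT3 alone.

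MYC promoter summits were found at ATF4 in all 3 SLK-KO and in 0 of 3 WT libraries, and at TRIB3 in 1 SLK-KO library. The other 8 genes had none. Across coding genes 0.873% had MYC in 3 SLK-KO and 0 WT libraries, 0.0% the reverse, 0.494% had MYC in all 6 libraries and 9.65% in at least 1. The count of members per library was 0, 0 and 0 in WT and 1, 2 and 1 in SLK-KO, 0.0 ± 0.0 against 1.33 ± 0.577 (SD, n = 3 for both). For all coding genes the WT share was 1.42% ± 0.395 and the SLK-KO share 5.5% ± 0.861 (SD, n = 3 for both). The ATF4 summits ranked 483 of 1218, 667 of 1420 and 508 of 988, in the middle of the SLK-KO lists at 39.7%, 47.0% and 51.4%. Each of these ranks is worse than 365, the last rank of any WT list, so the absence in WT cannot be told apart from the shorter WT lists. With all lists cut to 201 summits no member had MYC in any library, so none could be compared by rank, and 4.79% of 480 coding genes were called in favour of SLK-KO and 2.92% in favour of WT. With a minimum score of 10 no member had MYC either.

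The ATF4 MYC summits lay at 2 places. SLK-KO replicate 2 had its summit at 39520410 and SLK-KO replicate 3 its best at 39520436, which is -152 and -126 bp from the canonical TSS and 69 and 43 bp from the centre of the E-box shown above. SLK-KO replicate 1 had its summit at 39520999 and SLK-KO replicate 3 a further one at 39520927, which is 437 and 365 bp downstream of the TSS in an intron and 520 and 448 bp from the E-box. The POL2 summit of the same-numbered library was 160 to 392 bp away from these 4 summits. The TRIB3 MYC summit of SLK-KO replicate 2 lay at 362605 (rank 338 of 1420), 230 bp upstream of a distal TRIB3 TSS and at -18155 bp from the canonical TSS. A CACGTG was centred 40 bp from it, and the nearest POL2 summit of the same-numbered library was 14617 bp away. The MYC summit nearest to a TSS lay 11352 bp away for CHAC1, 230442 bp for DDIT3 and 5682562 bp for PSAT1, and PSAT1 was the other gene with a CACGTG within 1 kb, at -604, against 29.2% of coding genes.

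**Figure D4:**
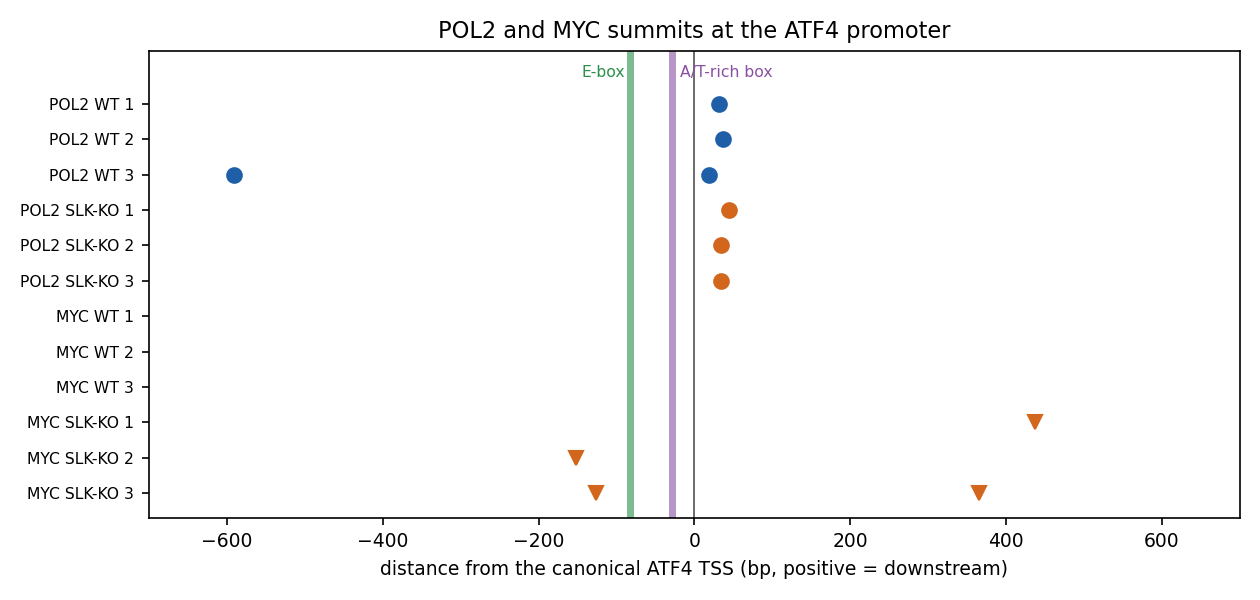
Distance of every POL2 summit (circles) and MYC summit (triangles) near the canonical ATF4 TSS (horizontal axis in bp, positive is downstream), with a line per library; blue is WT and orange is SLK-KO, and the coloured bands mark the E-box (CACGTG) and the A/T-rich box (TATAAA). The best POL2 summits lie 19 to 45 bp downstream in all 6 libraries, MYC summits lie on both sides in SLK-KO, and the 3 WT MYC lines are empty.

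The 54 other genes of the pathways comprised kinases, sensors and phosphatase subunits of eIF2alpha, bZIP partners of ATF4, other known ATF4 targets, serine and one-carbon enzymes, and genes of the IRE1 and ATF6 arms. POL2 promoter summits stood at 35 of the 54 in all 6 libraries and at 49 in at least 1, where the shares of all coding genes were 18.0% and 53.8%. The WT mean was 41.7 ± 6.11 genes and the SLK-KO mean 45.7 ± 0.577 (SD, n = 3 for both), and at equal list length the difference of 4.0 turned to -0.3333. Over all coding genes the share was 33.9% in WT and 47.1% in SLK-KO. All 9 sensor and phosphatase genes had POL2 in all 6 libraries, as did 5 of 8 bZIP partners, 10 of 19 other targets, 5 of 7 one-carbon genes and 6 of 11 genes of the other arms. VLDLR, FGF21, PCK2, ALDH18A1 and SHMT1 had none in any library. No gene had a POL2 summit in 3 libraries of a genotype and 0 of the other.

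At equal list length 40 of the 54 could be tested, 10 were called in favour of SLK-KO and 2 in favour of WT, beside the shares of 13.6% and 9.45% over coding genes. No pathway gene could pass an adjusted threshold, as for the members. The 12 genes are named here after their values were seen. In favour of SLK-KO were 3 bZIP partners of ATF4, namely ATF3, FOS and JUND. ATF3, a stress-induced repressor and partner of ATF4, ranked 242, 437 and 343 in WT and 90, 176 and 94 in SLK-KO. JUND ranked 598, 515 and 560 in WT and 272, 319 and 253 in SLK-KO. Among sensors and phosphatase subunits the genes were EIF2AK4 (the amino acid sensing kinase GCN2), PPP1R15B and DELE1, and among ATF4 targets GDF15, CTH, MAP1LC3B and HERPUD1. GDF15, a secreted stress hormone, ranked 1621 and 1213 in WT replicates 1 and 3, was past the end in WT replicate 2, and ranked 557, 534 and 518 in SLK-KO. In favour of WT were ERO1A, an oxidase of protein folding, and MTHFD1L, a mitochondrial folate enzyme that ranked 2454, 1901 and 1935 in WT and was past rank 5047 in all 3 SLK-KO libraries. None of the 10 tested genes of the IRE1 and ATF6 arms was called.

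MYC promoter summits stood at 19 of the 54 genes in at least 1 library and at none in all 6, where the shares of all coding genes were 9.65% and 0.494%. The WT mean was 2.33 ± 1.15 genes and the SLK-KO mean 10.0 ± 5.29 (SD, n = 3 for both), and with lists cut to 201 summits the difference of 7.67 turned to -1.333. Over all coding genes the share also rose, from 1.42% in WT to 5.5% in SLK-KO. JUND and PSPH, the last enzyme of serine synthesis, had MYC in 3 SLK-KO and 0 WT libraries, as ATF4 did and as 0.873% of coding genes did. Neither gene was in any list cut to 201 summits, so their absence in WT could not be compared at equal length. ATF5 had it in 1 WT and 3 SLK-KO libraries and SLC3A2, a subunit of amino acid transporters, in 2 and 3. MTHFD2, the mitochondrial folate enzyme, had it in 2 and 2, and EIF2S1, which encodes eIF2alpha, in 1 and 2. STC2 and MTHFD1 had it in 2 SLK-KO libraries. EIF2AK3, EIF2AK4, PPP1R15B, GPT2, SLC7A5, ERO1A, SHMT2, MTHFD1L, ATF6 and HSP90B1 had it in 1 SLK-KO library, and PYCR1 in 1 WT library. PHGDH and PSAT1, the enzymes of the steps before PSPH, had no MYC summit.

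Over the 3615 coding genes with POL2 promoter summits in all 6 libraries, the genes whose rank percentages lay closest to those of ATF4 were CCND1, HNRNPC and RSRC2. Their mean absolute differences from ATF4 over the 6 libraries were 0.279, 0.298 and 0.304 percentage points. CCND1 ranked 186, 136 and 247 in WT and 137, 218 and 260 in SLK-KO.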

How the data were processed

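Chromatin of WT and SLK-KO PC-3 cells was profiled with MYC and POL2 antibodies. Per the submitters' processing notes, Trim Galore 0.6.7, BWA 0.7.18-r1243, Picard 3.2.0 and MACS3 3.0.1 were used on GRCh38.p14, within nf-core/chipseq 2.1.0 per the series design. The deposited lists give the 1-bp summits of each library with a score, read as −log10 of the q-value because the lowest score of each list lay just above 1.30103. The control library and caller options are not given in the sources used here, and 8 IgG and Input samples were not used.

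From the lists, summits were ranked by score and matched to all TSSs of the protein-coding genes in GENCODE release 44 (promoter within 1 kb). WT and SLK-KO were compared per gene with an exact permutation test (two-sided, 20 relabellings), with Benjamini-Hochberg adjustment over all genes tested, and called when they did not overlap. The call on POL2 rank was tested on simulated ranks of genes with a summit in all 6 libraries, so genes missing from a list were not covered. The matching to TSSs, the adjustment, the comparison of positions and the MYC lists were not simulated. The rule for the members uses no measured value, but the members and lists were chosen with earlier results of these data known. Named were the 10 members, pathway genes with MYC, with POL2 in 3 libraries of 1 genotype alone or with no POL2, and the 3 genes closest to ATF4. Pathway genes called on POL2 rank were also named, after their values were seen. Alternatives covered windows, score minimums, list lengths, TSS sets, pairing by replicate number and omission of each library in turn. Python 3.11.15, numpy 2.4.6, pandas 2.3.3 and matplotlib 3.10.9 were used. Some of the marker genes looked at are not reported here.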

Additional observations from a re-analysis of the deposited data

How the results depend on the processing

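Of 266 recomputed values 228 kept their direction and their side of the call, or for counts stayed within 1.5 times and for differences within 1 SD. The 228 include the differences in counts under pairing by replicate number, which pairing cannot change. Rank differences of 5 members that were not called turned sign when a library was left out, over ranges of -16.67 to 60.67 for ATF4 (22.0 with all libraries), -35.83 to 11.17 for DDIT3 (-10.0), -126.0 to 344.5 for XBP1 (70.67), -894.3 to 741.0 for DDIT4 (-153.3) and -978.2 to 611.3 for PHGDH (-138.3). With a 500 bp window, and with the canonical TSS alone, 1 member in place of 2 was called on POL2 rank, and with the canonical TSS alone 1 member in place of 2 had MYC in at least 1 library. With a score of at least 5 the SLK-KO minus WT difference was 3.333 genes for MYC at the other pathway genes and 0.0 for POL2 gene body summits. With the higher minimum of 10 it was 9.333 for POL2 and 0.6667 for MYC at the other pathway genes, 0.0 for MYC at the members and 0.0 for gene body summits, while 3 members had POL2 in all 6 libraries and 0 had MYC. At equal list length it turned to -0.3333 for POL2 and -1.333 for MYC at the other pathway genes, was 0.0 for MYC at the members and for gene body summits, and 0 members had MYC. List length and score minimum remove summits by construction; other causes were not tested.

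Leaving out each library gave differences of 0.5 to 2.5 (POL2, members), 1.0 to 1.5 (MYC, members), 1.667 to 3.167 (gene body), 0.6667 to 6.667 (POL2, other genes) and 4.667 to 9.667 (MYC, other genes). Members with POL2 in all libraries numbered 5 to 8, with 8 without WT replicate 2. Members with MYC in at least 1 library numbered 1 to 2, with 1 without SLK-KO replicate 2. Members called on POL2 rank in favour of SLK-KO numbered 2 to 2, beside 1140 to 1242 of all coding genes. ATF4 was called in favour of WT without WT replicate 3, where 907 of 6588 coding genes were, against 642 of 6797 with all libraries. Members called on position numbered 0 to 2, with 2 of 8 tested without WT replicate 2 and 1 of 5 without SLK-KO replicate 2. The share of all coding genes called on position was not counted in these settings, so these calls have no background to be read against. With same-numbered libraries paired as a replicate block the differences were 1.667, 1.333, 2.333, 4.0 and 7.667 in that order. They could not change, because pairing leaves a difference of means as it was. A gene was then called when every pair went the same way. Called on POL2 rank were 2 members, in favour of SLK-KO. Over 6797 coding genes 1272 were called in that direction and 935 in favour of WT. On MYC rank and on position 0 members were called, and 8 sign flips allow no p below 0.25. Deviations of same-numbered libraries correlated weakly, at 0.107, 0.0558 and -0.0153 for POL2 and 0.021, 0.0127 and -0.0162 for MYC. POL2 replicate 1 alone correlated best with its own number. Low correlations cannot show whether the libraries were handled in pairs. The depth of the libraries is unknown, so a missing summit means not listed, and not absent.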
